A study of Mus musculus with 6 samples.

Results

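The 9 genes described here encode proteins of blood coagulation and of fibrinolysis that were read in mouse peritoneal macrophages: F3, F7, F10, F5, F13a1, Thbd, Plau, Plaur and Serpinb2. They are 9 of the 55538 features of a droplet single-cell RNA-seq count table, and they were chosen by their measured levels in the macrophages, the 4 classes of macrophages and the B cells described here, so these levels are a description and carry no test. Their levels were read in 2773 macrophages, 36.2% of the 7665 cells that passed the filters. A cell was counted as a macrophage with at least 2 unique molecular identifiers (UMIs, each marking 1 captured RNA molecule) over Csf1r, Adgre1 and Fcer1g, at most 2 over the B cell genes Cd79a and Cd79b, and at most 1 over Cd3d, Cd3e and Nkg7. The macrophages were then split 4 times: by at least 1 UMI of Gata6, the transcription factor of large peritoneal macrophages (657 cells, 23.7%), by at least 2 UMIs of the cytokine gene Tnf (260 cells, 9.38%), by at least 1 UMI over the stress response genes Trib3 and Ddit3 (625 cells, 22.5%), and by at least 1 UMI of the transcription factor gene Irf4 (277 cells, 9.99%). B cells, the 3101 cells with at least 4 UMIs over Cd79a and Cd79b, gave the level that free RNA and joined droplets can leave in a cell of another type.

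The study collected cells from the peritoneum of C57BL/6 mice (C57BL/6J in the study's methods) that were wild type or Mertk-/- (the MerKD line, in which the gene of the phagocytic receptor Mertk is disrupted in all cells), 8 to 12 weeks old. The cells were plated for 1 h, washed to keep those that adhered, and given either fresh medium or apoptotic Jurkat cells, a human T cell line killed by UV light, for 2 h or 6 h. Each of the 6 combinations of genotype and treatment is 1 library, and each library pools the cells of 3 mice. The table numbers its libraries 1 to 6, and these numbers were not matched here to a genotype or a time, so no genotype or time was compared and each library is named by its number only.

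Coagulation starts when tissue factor, the membrane protein encoded by F3, binds factor VII and the complex activates factor X, which with factor V turns prothrombin into thrombin. Thrombin cuts fibrinogen into fibrin, factor XIII links the fibrin strands, and thrombomodulin turns thrombin towards an anticoagulant role. Clots are dissolved by plasmin, which urokinase makes from plasminogen at the urokinase receptor and whose making is restrained by inhibitors such as the product of Serpinb2. Resident macrophages of body cavities are known to make several clotting factors, and fibrin forms around them in peritoneal inflammation.

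Promoter windows are shown first, since RefSeq holds them for most of the genes. RefSeq (GRCm38.p6) gives a window for 7 of the 9. Plau and Thbd have no entry. The 250 bases before the start were searched on both strands for TGANTCA, the letters of AP-1 factors, for TGACGTCA, the cyclic AMP response element, for GATAAG, the letters of GATA factors, and for TGATGNAA, the composite element of C/EBP and ATF factors. The AP-1 letters lie in the windows of 3 genes, F3, Serpinb2 and Plaur, and in 6.75% of the 32851 windows of all genes. The GATA letters lie in 1 of the 7, F13a1, against 6.55% of all windows, and no window of the 7 holds TGACGTCA (1.55% of all) or TGATGNAA (3.45%). A match is a run of letters and not a known site, and no relation of the letters to the levels was tested. The 3 windows with AP-1 letters and, for contrast, that of F5 are given 5′ to 3′, with the matches in capitals.
F3 (chr3:121723287-121723536, plus strand): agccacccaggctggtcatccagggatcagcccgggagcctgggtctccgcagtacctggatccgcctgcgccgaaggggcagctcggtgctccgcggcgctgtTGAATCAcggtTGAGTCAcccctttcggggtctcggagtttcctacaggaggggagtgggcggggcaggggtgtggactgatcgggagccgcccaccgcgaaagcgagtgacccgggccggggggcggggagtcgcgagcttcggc
Serpinb2 (chr1:107511173-107511422, plus strand): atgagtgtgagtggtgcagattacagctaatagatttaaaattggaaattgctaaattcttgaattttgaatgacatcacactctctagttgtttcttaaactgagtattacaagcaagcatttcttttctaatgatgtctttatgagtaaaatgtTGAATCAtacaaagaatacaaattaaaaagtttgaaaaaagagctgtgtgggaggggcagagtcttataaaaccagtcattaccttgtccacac
Plaur (chr7:24462233-24462482, plus strand): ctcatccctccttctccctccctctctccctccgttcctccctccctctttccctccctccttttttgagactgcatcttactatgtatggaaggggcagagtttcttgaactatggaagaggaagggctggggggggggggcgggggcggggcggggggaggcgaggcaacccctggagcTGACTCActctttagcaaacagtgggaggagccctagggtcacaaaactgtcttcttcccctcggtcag
F5 (chr1:164151585-164151834, plus strand): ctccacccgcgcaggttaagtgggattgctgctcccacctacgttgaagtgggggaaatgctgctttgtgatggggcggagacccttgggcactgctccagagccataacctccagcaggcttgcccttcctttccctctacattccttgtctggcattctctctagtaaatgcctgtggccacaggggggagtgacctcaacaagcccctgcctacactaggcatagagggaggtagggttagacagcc
F3 holds 2 matches, the outer one 146 to 140 bases and the inner one 135 to 129 bases before the start. The match of Serpinb2 lies 94 to 88 bases and that of Plaur 69 to 63 bases before the start. No match lies in the F5 window.

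In the GENCODE vM21 annotation of the same build, F3 spans positions 121723537 to 121735048 of chromosome 3 on the plus strand. F7 (13026034 to 13035809) and F10 (13037308 to 13056676) are neighbours on the plus strand of chromosome 8, with 1498 bases between them. F5 spans 164151838 to 164220277 and Serpinb2 107511423 to 107535478, both on the plus strand of chromosome 1. F13a1 lies on the minus strand of chromosome 13 (36867178 to 37050244) and Thbd on the minus strand of chromosome 2 (148404466 to 148408188). Plaur lies on chromosome 7 (24462484 to 24475968) and Plau on chromosome 14 (20836660 to 20843385), both on the plus strand. Serpinb2 overlaps Serpinb10 on the same strand, and that gene had 65 UMIs in macrophages against 29484 of Serpinb2. F5 overlaps Gm16548 on the opposite strand (28 UMIs) and the pseudogene Gm16588 (11 UMIs), against 6216 UMIs of F5.

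Depth was between 4234786 and 10287079 UMIs per library, with 225 to 690 macrophages in each and a median of 4426 UMIs per macrophage, 5561 per B cell and 2811 per T or NK cell. Of the markers fixed for large peritoneal macrophages, 9 of 13 were seen in at least 10% of the macrophages. The mesothelial markers Msln, Upk3b, Wt1, Lrrn4 and Krt19 were all at 0 in them, as were the platelet markers Gp9 and Gp1bb, while Pf4 stood at 2641 UMIs for every 1000000 of the class, the scale (CPM) of all levels given here. The barcode sequences of 28 pairs of cells occur in 2 libraries, and 21 macrophages are among them. Leaving these out changed no count of genes given below.

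Around the gate's own limit, the 272 cells with 2 macrophage marker UMIs held F10 at 654 CPM and the 214 cells with 1, left outside, at 375. F5, Thbd, Serpinb2 and Plaur were also lower in the cells left outside. The other genes were higher there: F7 (66.5 against 44.8 CPM), F3 (117 against 108), F13a1 (165 against 144) and Plau (48.4 against 25.2). The 95% intervals for counting error overlap for all the genes but F5, F10 and Serpinb2, so the genes do not fall away together at the limit.

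All 9 genes passed the minimum of 100 UMIs in macrophages, and 8 of them stood at least 2-fold above B cells, where 18.8% of all 10670 features compared did so. Plau stood at least 2-fold below B cells, where 26.6% of features did. This contrast and the 4 splits helped to choose the genes, so nothing is read from these counts or from those of the splits. Intervals are exact 95% intervals that cover counting error only. UMI counts are not scaled by gene length, so levels are compared within a gene and not between genes.

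F3, the trigger of coagulation, stood at 209 CPM in macrophages (201.5 to 217) and 3.38 in B cells. By library it was 225, 179, 511, 158, 117 and 119 CPM in libraries 1 to 6. Library 3 was over 2 times as high as any other library, and the lowest library was 4.37 times below it. F3 was held by few cells: 25.2% of macrophages had a UMI, 14.6% once every cell was thinned to 1500 UMIs, and the richest 10% of the cells held 80.1% of its UMIs. F7, which encodes its partner protease, stood at 66.3 CPM (62.0 to 70.7) with 8.66% of thinned macrophages positive. Its 6 libraries lay between 59.2 and 88.2 CPM, the narrowest range of the 9 genes.

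F10, encoding the protease that makes thrombin, stood at 716 CPM (702 to 731) and was seen in 52.0% of thinned macrophages. Its libraries ran from 559 to 968 CPM, and libraries 1, 2 and 3 lay above the other 3. F5, encoding the cofactor of factor Xa, stood at 451 CPM (440 to 462) and in 41.0% of thinned cells. F5 was 543, 612, 287, 420, 457 and 218 CPM in libraries 1 to 6, lowest in libraries 3 and 6. F13a1, the catalytic chain of the fibrin crosslinker, stood at 152 CPM (145 to 159). It was 302 CPM in library 6 and between 102 and 171 in the others.

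Thbd, encoding thrombomodulin, stood at 27.1 CPM (24.5 to 30.0) and in 3.61% of thinned cells, and ran from 13.6 CPM in library 1 to 52.1 in library 3. Serpinb2, which encodes plasminogen activator inhibitor 2, stood at 2140 CPM (2115 to 2164) and in 54.2% of thinned cells. Its libraries lay between 1795 and 3118 CPM. The richest 10% of the cells held 53.2% of Serpinb2 UMIs and 1 cell held 271 of them. Plaur, encoding the urokinase receptor, stood at 331 CPM (321 to 340) and in 34.3% of thinned cells, and its libraries 3 (626) and 6 (665) lay above the other 4 (215 to 328). Plau, encoding urokinase itself, stood at 14.1 CPM (12.2 to 16.2), or 194 UMIs in 136 cells. Plau was 38.3 CPM in library 3 and 35.3 in library 6 against 6.67 to 8.29 in the other 4, so urokinase and its receptor were highest in the same 2 libraries.

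**Figure D1:**
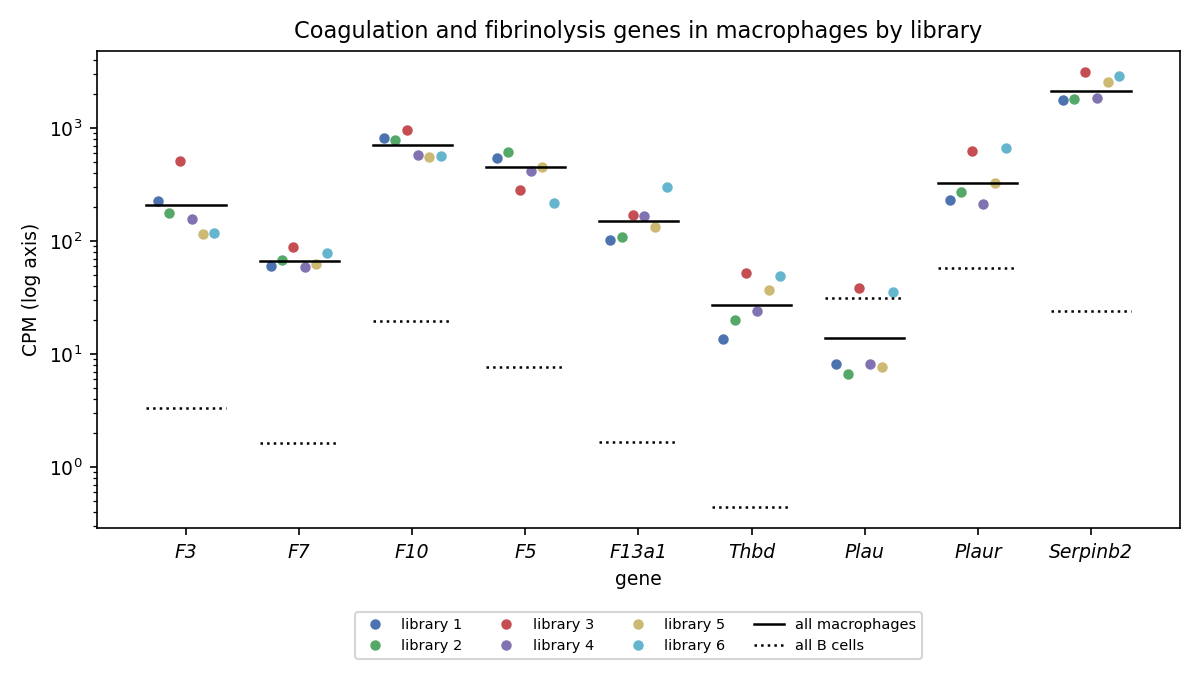
CPM of the 9 genes in macrophages (vertical axis, logarithmic), by library number (coloured points), over all macrophages (solid line) and over all B cells (dotted line). Plau is the gene whose line for macrophages (14.1) lies below that for B cells (31.3). The library numbers are not matched to a genotype or time, so the points are not replicates of a condition.

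B cells held 7 of the genes at 1.11% to 2.76% of the macrophage level, and for 6 of these nearly all the UMIs lay in B cells that also held a macrophage marker UMI. For Thbd, 6 of its 9 UMIs lay in B cells without one. In the 2863 B cells with no UMI of Csf1r, Adgre1 or Fcer1g, F10 stood at 0.774 CPM, F5 at 0.497 and Serpinb2 at 1.33. The 238 B cells with such a UMI held F10 at 191 CPM, F5 at 72.7 and Serpinb2 at 232. The T and NK cells, 352 cells, had no UMI of F3, F7, F5, F13a1 or Thbd, which allows up to 0.852% of cells with a UMI by the limit of 3 counts, and 1.04% by the exact 95% interval. That class was limited to cells with at most 1 macrophage marker UMI, a limit that the B cells did not have.

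The urokinase genes behaved otherwise. Plau was 31.3 CPM in B cells (28.9 to 33.9), 2.23 times the macrophage level, and lower in macrophages than in B cells in 6 of 6 libraries. Without any macrophage marker UMI the B cells still held Plau at 31.2 CPM and Plaur at 53.9 CPM. Plaur over all B cells was 57.9 CPM, 17.5% of its macrophage level. The share of thinned cells with a UMI was 2.08% of macrophages and 2.71% of B cells for Plau, and 34.3% and 6.53% for Plaur.

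In Gata6-positive against Gata6-negative macrophages, none of the 9 genes differed by 2-fold or more, with 4 ratios above 1 and 5 below. Of the 7825 features compared, 0.307% were at least 2-fold higher and 2.85% at least 2-fold lower. The markers of large peritoneal macrophages, a list that holds Gata6 itself, summed to 3389 CPM in Gata6-positive and 2066 in Gata6-negative cells. The split therefore does not set large macrophages against cells without their markers. The median log2 ratio was -0.02 over the 9 genes and -0.05 over all features. F5 had the largest rise, 649 CPM in Gata6-positive and 371 in Gata6-negative cells, a log2 ratio of 0.80 (0.73 to 0.88). In Gata6-positive cells of libraries 1 to 6, F5 was 720, 914, 451, 503, 588 and 441 CPM, and in Gata6-negative cells 444, 470, 246, 388, 401 and 183. It was higher in Gata6-positive cells of all 6 libraries, although the ranges of the libraries overlap. Serpinb2 was also higher in 6 of 6 libraries, by less (log2 0.31, 0.27 to 0.34).

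On the lower side, Plaur stood at 258 CPM in Gata6-positive and 360 in Gata6-negative cells, a log2 ratio of -0.48 (-0.58 to -0.38), and was lower in 6 of 6 libraries. F13a1 stood at 107 and 170 CPM (log2 -0.68) and was lower in 4 of 6 libraries. Plau was 1.90 times lower (8.59 and 16.3 CPM, 34 UMIs in the positive cells), in 4 of 6 libraries, and passed 2-fold under 9 of 19 other settings. F7 and F10 lay within 0.04 of 0 on the log2 scale, and Thbd at -0.12 with an interval across 0. F3 stood at -0.02 over all cells, but its libraries went opposite ways, with log2 ratios of -0.53, -0.39, 1.09, -0.52, 0.96 and 0.43 in libraries 1 to 6. In library 3 it was 887 CPM in Gata6-positive and 416 in Gata6-negative cells. The intervals of 5 of the 6 libraries leave out 0, but they cover counting error only and not the spread between cells. In library 5 the 69 F3 UMIs of the Gata6-positive cells lay in 16.7% of 78 cells. Gata6-positive cells were deeper, with a median of 5542 UMIs against 4134.5.

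Of the 9 genes, F3 differed most with Tnf. It stood at 688 CPM in Tnf-positive and 141 in Tnf-negative macrophages, 4.86-fold (log2 2.28, 2.17 to 2.39). In Tnf-positive cells of libraries 1 to 6, F3 was 842, 659, 767, 543, 571 and 282 CPM, and in Tnf-negative cells 117, 113, 464, 97.7, 87.0 and 109. The difference held in 6 of 6 libraries and was smallest in library 3 (log2 0.72), where the Tnf-negative cells already held 464 CPM. The level rose with the number of Tnf UMIs: 128 CPM in cells with 0, 223 with 1, 463 with 2 and 776 with 3 or more, so that the cells just outside the gate (1 UMI) lay between. Tnf-positive cells were also deeper (median 6298 UMIs against 4304), and among cells of 3000 to 8000 UMIs and after thinning F3 remained past 2-fold, as it did in all 20 settings.

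Thbd went the other way, at 8.21 CPM in Tnf-positive and 29.8 in Tnf-negative cells (log2 -1.86, -2.75 to -1.10). Only 14 UMIs lay in the Tnf-positive cells. Libraries 3 and 6 had none there, against 61.7 and 52.3 CPM in their Tnf-negative cells, and the other 4 libraries were lower too, with log2 ratios from -2.32 to -0.14. Taken as the median over libraries the ratio was -0.79, but this value rests on library 6 set at the limit of 3 UMIs, so it is an upper limit and whether it passes 2-fold is not known. With gates read on thinned cells the ratio was -0.12. Thbd and F3 make 1 gene of 9 lower and 1 higher, against 3.57% and 0.971% of all features. F10 rose by less (967 and 681 CPM, log2 0.51, 0.43 to 0.58; higher in 5 of 6 libraries). F5, F7, F13a1 and Plaur lay within 0.14 of 0 on the log2 scale, and Plau stood at 21.1 and 13.1 CPM on 36 UMIs. Serpinb2 stood at 2545 and 2083 CPM (log2 0.29) but was higher in only 3 of 6 libraries. The median log2 ratio was 0.09 over the 9 genes and -0.20 over all features.

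**Figure D2:**
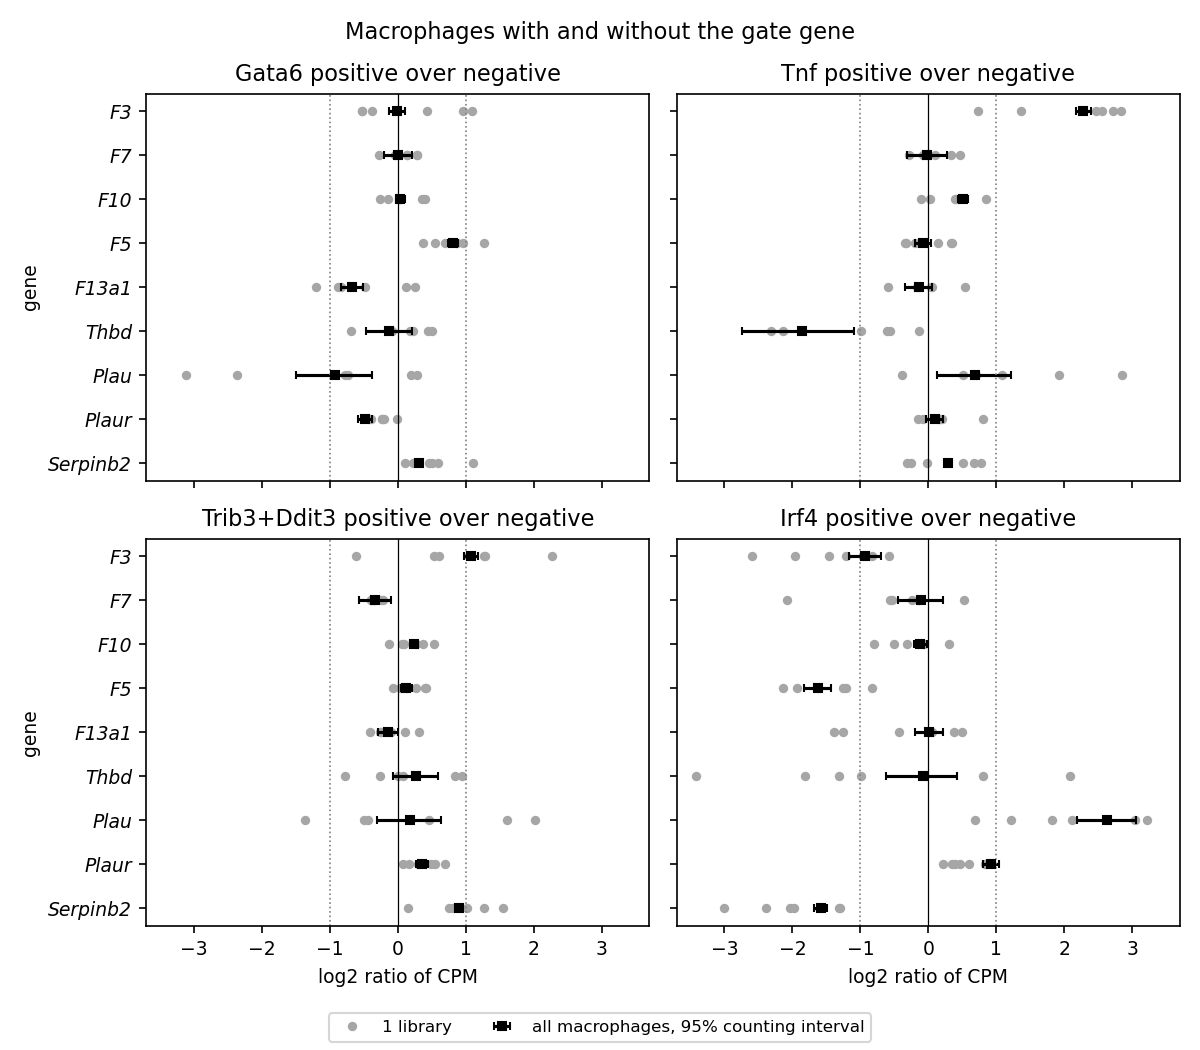
Log2 ratio of CPM (horizontal axis) between gate-positive and gate-negative macrophages for the 9 genes in the 4 splits, over all macrophages (squares, with 95% intervals for counting error) and in each library (grey points). Dotted lines mark a 2-fold difference. F3 lies past 2-fold with Tnf in all but 1 library, while F5 and Serpinb2 lie below 0 and Plau and Plaur above 0 with Irf4 in every library. The Thbd points of libraries 3 and 6 in the Tnf panel are drawn at the limit that 3 UMIs would give, since no UMI was seen there.

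In macrophages with a UMI of Trib3 or Ddit3, genes of the integrated stress response, F3 stood at 341 CPM against 162 in the others (2.11-fold, log2 1.08, 0.97 to 1.19), the only gene of the 9 past 2-fold. Of all features, 0.32% were that much higher and 1.19% that much lower. In the positive cells of libraries 1 to 6, F3 was 406, 475, 675, 263, 86.0 and 157 CPM, and in the negative cells 170, 98.3, 444, 108, 132 and 109. Library 5 was thus lower in the positive cells. The ratio passed 2-fold in 15 of 20 other settings. It was below 2-fold on thinned cells (log2 0.95), as the median over libraries (0.93), without library 2 (0.92), among cells of 3000 to 8000 UMIs (0.74) and with gates read on thinned counts (0.68).

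Serpinb2 followed close behind F3, at 3245 CPM in the positive and 1742 in the negative cells (log2 0.90, 0.86 to 0.93), just under 2-fold. By library it was 2594, 3374, 4846, 2588, 2773 and 6042 CPM in positive cells and 1548, 1405, 2407, 1482, 2494 and 2073 in negative cells. Serpinb2 was higher in 6 of 6 libraries, and the lowest of the positive values lies above every negative one. Plaur was higher (393 and 308 CPM, log2 0.35) and F7 lower (55.6 and 70.1 CPM, log2 -0.33), each in 6 of 6 libraries. F5, F10, F13a1, Thbd and Plau lay within 0.27 of 0 on the log2 scale. Cells with 1 Trib3 or Ddit3 UMI held Serpinb2 at 2852 CPM and cells with 2 or more at 3882. Positive cells were deeper here too (median 5377 UMIs against 4196.5). The median log2 ratio was 0.24 over the 9 genes and -0.11 over all features.

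The Tnf and the Trib3+Ddit3 gates share 82 cells, so F3 and Serpinb2 were read in the 4 joint classes. F3 stood at 109 CPM in cells outside both gates, 238 with Trib3 or Ddit3 alone, 596 with Tnf alone and 851 with both. Within Trib3+Ddit3-negative cells F3 was 5.46 times as high with Tnf as without, in 6 of 6 libraries. Within Tnf-negative cells it was 2.18 times as high with Trib3 or Ddit3 as without, in 5 of 6. Serpinb2 stood at 1682, 3275, 2234 and 3098 CPM in the same order. Among Tnf-negative cells it was 1.95 times as high with Trib3 or Ddit3, in 6 of 6 libraries. Its level with both gates was above that with Trib3 or Ddit3 alone in 3 of 6 libraries and below it in the other 3.

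**Figure D3:**
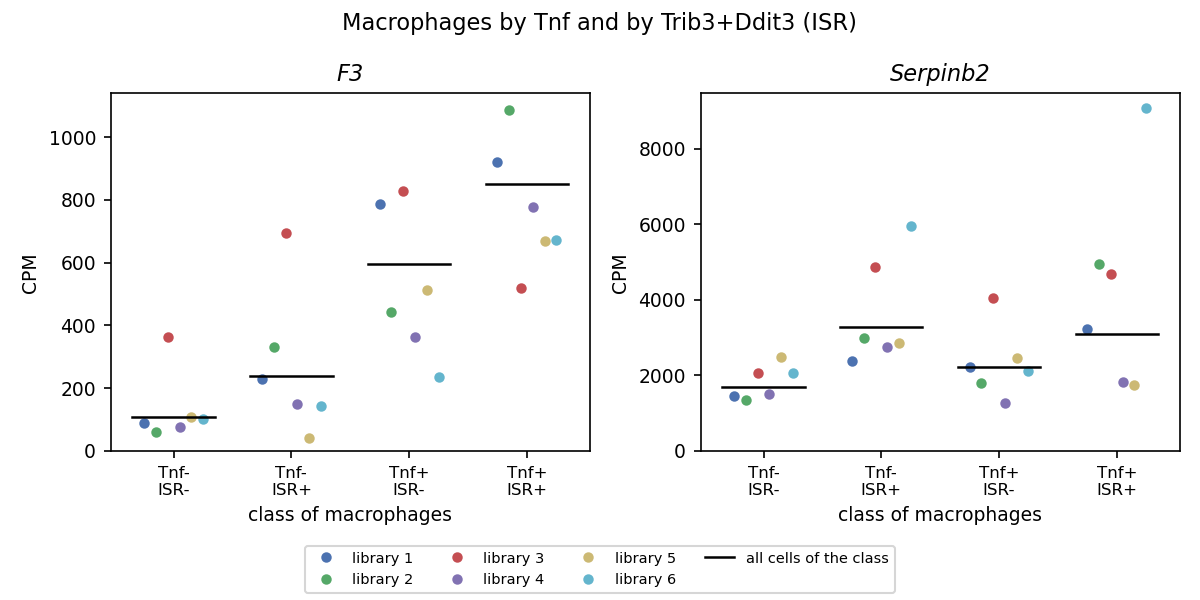
CPM of F3 and Serpinb2 (vertical axes) in macrophages by Tnf and by Trib3+Ddit3 (ISR, integrated stress response), in each library (points) and over all cells of the class (lines). F3 climbs from 109 to 851 across the classes, and over all cells Serpinb2 is highest in both classes with Trib3 or Ddit3. The class with both holds only 3 to 28 cells per library.

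Irf4-positive macrophages held less of F5 and Serpinb2 and more of Plau and Plaur. F5 stood at 157 CPM against 483 in Irf4-negative cells (log2 -1.62, -1.83 to -1.43). In positive cells of libraries 1 to 6 it was 242, 145, 111, 244, 125 and 109 CPM, and in negative cells 561, 639, 341, 431, 474 and 259, so every positive value lies below every negative one. Serpinb2 stood at 763 against 2290 CPM (log2 -1.59, -1.68 to -1.50). By library it was 754, 238, 738, 766, 654 and 922 CPM in positive cells and 1858, 1916, 3846, 1903, 2687 and 3616 in negative cells, again with no overlap. These are 2 of 9 genes at least 2-fold lower, against 6.04% of all features. F3 was lower too (115 and 219 CPM, log2 -0.93), also in 6 of 6 libraries, with log2 ratios from -1.33 to -0.20 under the other settings.

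Plau stood at 57.7 CPM in Irf4-positive and 9.34 in Irf4-negative macrophages, 6.18-fold (log2 2.63, 2.19 to 3.05), where 4.98% of all features were at least 2-fold higher. In positive cells of libraries 1 to 6 it was 52.4, 10.4, 67.9, 25.4, 46.7 and 80.4 CPM, from 1 to 34 UMIs, and in negative cells 5.62, 6.46, 29.3, 7.19, 5.67 and 18.5. Plau was higher in the positive cells of all 6 libraries, by 1.97 on the log2 scale in the median library. Plaur stood at 577 and 304 CPM (log2 0.92, 0.81 to 1.04) and was higher in 6 of 6 libraries, but by 0.44 in the median library. Irf4-positive cells make up 20.9% and 23.4% of the macrophages of libraries 3 and 6, where Plaur was highest, and 4.57% to 5.71% of the other 4. In Irf4-negative cells of libraries 1 to 6, Plaur stood at 222, 268, 583, 212, 320 and 637 CPM, so libraries 3 and 6 were highest there too. In Irf4-positive cells it stood at 395, 373, 769, 269, 483 and 740 CPM.

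Each of these levels changed in the same direction with the number of Irf4 UMIs. F5 went from 483 CPM with 0 to 234 with 1 and 90.7 with 2 or more, and Serpinb2 from 2290 to 1189 and 397. Plau went from 9.34 to 36.8 and 75.6, and Plaur from 304 to 531 and 615. These steps, like those of Tnf and of Trib3+Ddit3 UMIs, are over all libraries and were not read within each. Libraries 3 and 6 held 47 and 121 of the 277 Irf4-positive cells. F7, F10 and F13a1 lay within 0.12 of 0 on the log2 scale over all cells. For F13a1 the libraries differed: it was lower in Irf4-positive cells of library 1 (40.3 and 105 CPM, log2 -1.39) and library 3 (83.4 and 198 CPM, log2 -1.25) and higher in library 4 (233 and 165 CPM, log2 0.50). F10 was lower in 5 of 6 libraries. Thbd stood at -0.08 over all cells, but its libraries went opposite ways. It was higher in Irf4-positive cells of library 4 (86.2 and 20.3 CPM) and library 5 (62.3 and 35.6 CPM) and lower in the others. A single cell held 45.7% of the Thbd UMIs in Irf4-positive cells. The median log2 ratio was -0.10 over the 9 genes and 0.03 over all features. Only 22 cells passed both the Gata6 and the Irf4 gates. In them F5 was 410 CPM and Serpinb2 1928, against 124 and 614 in the 255 Irf4-positive cells without Gata6.

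Irf4-positive macrophages also carried more RNA of B cell, eosinophil and dendritic cell marker genes. Their 6 B cell markers summed to 61.4 CPM, none of them at 0, against 7.73 in Irf4-negative macrophages, and by library to 31.1 to 137 against 3.75 to 13.5. B cells themselves summed to 2869 CPM, so the Irf4-positive macrophages held 2.14% of the B cell level. Among macrophages with no Cd79a or Cd79b UMI, Plau remained past 2-fold. Of 4 eosinophil markers, Epx and Prg2 were at 0 and the sum was 143 CPM against 5.79 (by library 65.9 to 327 against 2.35 to 25.5), carried by Siglecf. The 6 dendritic cell markers, with Xcr1 and Clec9a at 0, summed to 29.6 CPM against 13.2 (by library 20.3 to 51.8 against 8.75 to 23.8). The part of any of these in the results was not tested. Markers of small peritoneal macrophages, a list that holds Irf4 itself, summed to 26750 CPM against 7803 (B cells held 20036 on the same list), and those of large ones to 906 against 2614.

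Plau followed Irf4 in B cells too, at 50.9 CPM in the 1373 Irf4-positive and 5.02 in the 1728 Irf4-negative B cells, 10.1-fold and in 6 of 6 libraries. Plaur stood at 75.5 and 34.3 CPM (log2 1.14), also higher in 6 of 6. The Irf4-positive B cells were deeper, with a median of 7712 UMIs against 4342.

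**Figure D4:**
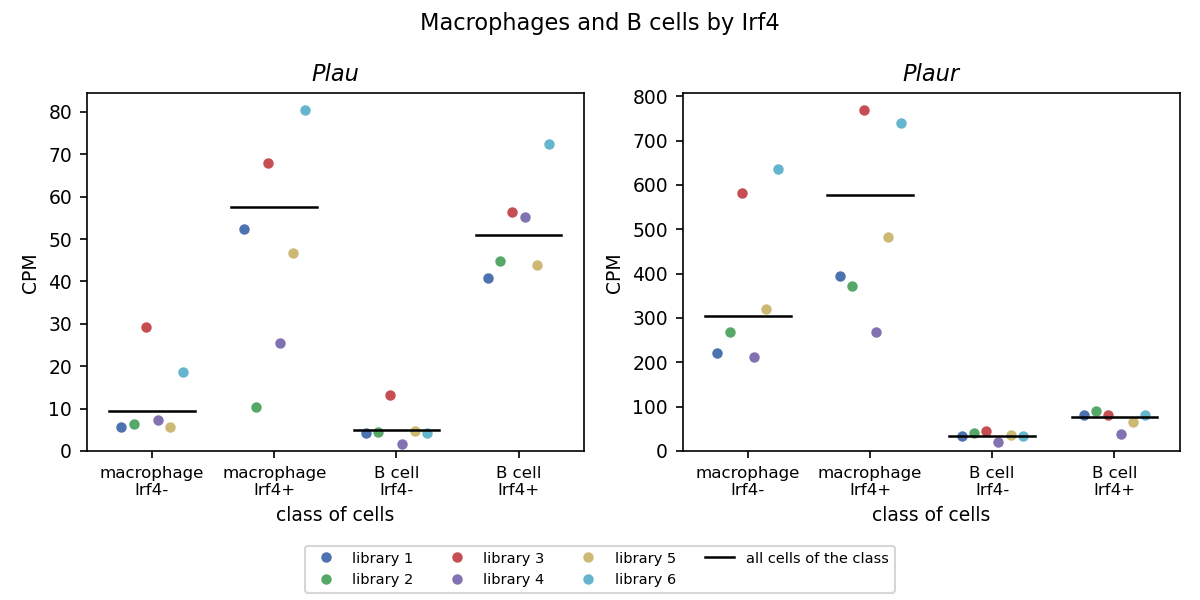
CPM of Plau and Plaur (vertical axes) in Irf4-negative and Irf4-positive macrophages and B cells, in each library (points) and over all cells of the class (lines). Plau reaches like levels in Irf4-positive macrophages (57.7) and B cells (50.9), whereas Plaur is several times higher in macrophages of either kind.

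In thinned macrophages few of the genes were detected per cell, and this number depends on depth. Without thinning, F10 was seen in 72.5% of macrophages, Serpinb2 in 62.7%, F5 in 62.6% and Plaur in 60.7%. The other genes were seen in 4.90% (Plau) to 32.5% (F13a1). After thinning to 1500 UMIs, 2690 macrophages remained, 83 shallower ones were left out, and 30.9% of the rest held a UMI of 2 of the 9 genes, 7.77% of none and 1 cell of 7. F5 and Serpinb2 were seen together: Serpinb2 was found in 70.7% of the F5-positive cells (67.9 to 73.4) and 42.7% of the others (40.3 to 45.2). F3 was found in 19.1% of Serpinb2-positive cells and 9.17% of the others. Plaur was found in 49.5% of F3-positive cells and 31.8% of the others. Plau was rarer with Serpinb2, in 0.617% of Serpinb2-positive cells (9 of 1458) and 3.81% of the others. F10 was found in 52.8% of F5-positive and 51.5% of F5-negative cells, 2 intervals that overlap. All these shares pool the 6 libraries, which differ in the genes. Before thinning, library 3 had the largest shares of cells with F3 (54.7%) and Plaur (82.2%). Libraries 3 and 6 had the largest shares with Plau (15.1% and 8.32%) and the smallest with Serpinb2 (56.0% and 50.3%). The pairs were not read within each library, so the part of these differences was not tested.

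Genes with a like pattern were sought among 7826 features over 54 points, the 8 gate classes and B cells in each of the 6 libraries. The points share cells and libraries, so the correlations of log2(CPM + 1) are a description. The 6 points of B cells, from which 8 of the genes differ by how they were chosen, weigh on every r. Over the 48 macrophage points alone, r of F5 with F3 was 0.28 in place of 0.86, and that of F3 with F10 0.79 in place of 0.91. The values below are over all 54 points. Nearest to F3 were the inflammatory genes Il1a (r = 0.975), Cxcl2 (0.970) and Ptgs2 (0.946). F5 lay near the complement gene C4b (0.988) and Cd14 (0.985). F10 lay nearest to C1qb (0.988), C1qc (0.978) and Tgm2 (0.975), F7 to Cmklr1 (0.968), Olr1 (0.968) and C5ar1 (0.965), and F13a1 to Ctsl (0.978), Tbxas1 (0.975) and Cndp2 (0.967). Serpinb2 lay near Ms4a8a (0.953) and Fabp4 (0.952), and Plaur nearest to Il1rn (0.957), Sat1 (0.955) and Ccl2 (0.954). For the sparse genes the highest values were lower: 0.837 for Thbd with Spred2, and 0.803 for Plau with Tec. Over the macrophage points alone, F3 with Il1a kept 0.936, F5 with C4b 0.915, Plaur with Il1rn 0.889 and Plau with Tec 0.798. There F10 with C1qb was 0.816 and F13a1 with Ctsl 0.810. Lower were F10 with C1qc (0.679) and Tgm2 (0.631), Serpinb2 with Ms4a8a (0.675) and Thbd with Spred2 (0.673). F7 with Cmklr1 was 0.644 and with C5ar1 0.450. The nearest genes were not sought again over these points, so they need not be the nearest within macrophages.

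The rest of the pathway was read from a list of 43 other genes of coagulation and fibrinolysis, of which 16 had no UMI in macrophages, among them prothrombin (F2), the fibrinogen genes Fga, Fgb and Fgg, and plasminogen (Plg). Only 12 of the 43 stood at 5 CPM or more. Thbs1, encoding thrombospondin 1, stood at 10571 CPM. Procr, encoding the receptor of protein C, stood at 154 CPM and Pros1, its cofactor protein S, at 56.7. The plasminogen receptor genes Anxa2, S100a10, Eno1 and Plgrkt stood at 260, 150.1, 371 and 36.7 CPM. In the same order they stood at 38.2, 138, 143 and 43.4 CPM in B cells. In T and NK cells they stood at 25.4, 347, 150 and 56.2 CPM, so S100a10 and Plgrkt are not particular to macrophages. Lman1 and Mcfd2, whose proteins carry factors V and VIII out of the endoplasmic reticulum, each stood at 108 CPM. Also among them were the endocytic receptor gene Lrp1 (164) and Vkorc1 (56.3) of the vitamin K cycle.

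Of these genes, 12 held at least 100 UMIs in macrophages and were compared. With Irf4, 2 were at least 2-fold higher, against 4.98% of all features. They were Anxa2 and S100a10, the 2 chains of 1 plasminogen receptor (both log2 1.59). Pros1 fell with Irf4 (log2 -1.09), and 6.04% of all features were at least 2-fold lower. With Gata6, 1 was lower, Anxa2 (106 and 322 CPM, log2 -1.61), against 2.85% of features, and none higher, against 0.307%. None passed 2-fold with Trib3 or Ddit3, where 0.32% of features were higher and 1.19% lower. With so few genes compared, nothing is read from these counts.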

How the data were processed

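The authors ran Cell Ranger (1.3.1 in the study's methods, 2.2 in the submitters' processing notes, which also name Seurat 3.0 and the builds mm10 and GRCm38) and deposited raw UMI counts, with genes in rows and the cells of all libraries in columns. The annotation they counted on is not given in the sources used here. No normalization had been applied to the deposited counts. Of 7760 barcodes, 7665 were kept: those with 500 or more genes, 0.8 or more for log genes divided by log UMIs, and no more than 10% mitochondrial UMIs. Library numbers were not matched to samples, so each value is over all libraries or by library number. Counts were summed per class and divided by its UMIs (CPM, in Python 3.11.15 with numpy 2.4.6 and pandas 2.3.3). Intervals are exact Poisson, binomial or conditional (scipy 1.17.1) at 95%, and where no UMI was seen the limit was set at 3. Features with at least 100 UMIs in macrophages were compared, and a difference of 2-fold was called. No test between classes or conditions was run (single libraries were held only to Dixon's criterion), since a condition has only 1 library and cells of a library do not replicate it, and since the genes and lists were chosen with earlier results of these data known. Free RNA was not removed, and doublets (Scrublet in scanpy 1.11.5) were left out only as an alternative. The genes named are the 9 members, the gate genes, the pathway list at 5 CPM or more or past 2-fold, and the 3 genes nearest to each member. Some genes that this rule names are not reported here. The T and NK class (at least 3 UMIs of Cd3d, Cd3e and Nkg7, at most 2 of the B cell and 1 of the macrophage markers, a limit the B cell gate lacked), the correlations without B cells, the split of B cells by macrophage markers and the steps of gate UMIs were added after the values were seen. On simulated counts of 7826 features, the intervals held the true ratio for 95.8%. These counts were drawn with counting error only, as the intervals assume. The share therefore checks the computation and says nothing on the spread between cells or libraries.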

Additional observations from a re-analysis of the deposited data

Results flagged for a closer look

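A library was singled out where its gap to the nearest other library was large for the range of the 6, by Dixon's criterion. Of 44 sets of 6 libraries tested, 3 stood out, and chance alone gives about 1 in 20. The 6 libraries are different conditions whose numbers were not matched here, not replicates of 1 group. F3 was 511 CPM in the macrophages of library 3, with 225 in the next library and 117 in the lowest. F13a1 was 302 CPM in library 6, with 171 in the next and 102 in the lowest. The log2 ratio of Plaur between Tnf-positive and Tnf-negative macrophages was 0.81 in library 2, with 0.20 in the next and -0.16 in the lowest. The cause of these differences was not tested.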

How the results depend on the processing

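The results were recomputed under 20 other settings, 15 listed at the start and 5 chosen after seeing the data. All 6 ratios of 2-fold or more (F3 with Tnf and with Trib3+Ddit3, Thbd with Tnf, and F5, Serpinb2 and Plau with Irf4) kept their direction in every setting that gave a value. F3 with Tnf, F5, Serpinb2 and Plau with Irf4 stayed past 2-fold in all of them, and 8 genes stayed at least 2-fold above B cells. The count of genes at least 2-fold lower with Gata6, 0, became 1 (Plau) for cells positive for 1 gate only, thinned cells, cells weighted equally and called doublets left out (63 cells, 0.822%), and among the added settings for macrophages with no B cell marker UMI, cells of 3000 to 8000 UMIs and gates read on thinned counts. Leaving out each library in turn gave 0 to 1, with 1 without library 1 or library 4. With Tnf, 2 genes instead of 1 were higher under stricter gates, and 0 instead of 1 lower for the median over libraries and for gates read on thinned counts (at least 1 UMI each). That median (Thbd, log2 -0.79) holds 1 library at the limit of 3 UMIs, so no loss of the call is read from it. With Trib3+Ddit3, the count of higher genes, 1, was 2 for cells positive for 1 gate only, for cells weighted equally and for ratios centred on the median of all features. It was 0 for the median over libraries and for cells of 3000 to 8000 UMIs, and 0 to 1 when leaving out each library, with 0 without library 2. F3 itself was also below 2-fold on thinned cells and with gates read on thinned counts, so an unchanged count need not rest on F3. With Irf4, 2 genes instead of 1 were higher (Plaur added) among macrophages with no B cell marker UMI and cells of 3000 to 8000 UMIs, and 4 instead of 2 were lower under stricter gates and for the median over libraries. The count of lower genes was 3 (F3 added) for gates read on thinned counts, and 2 to 3 when leaving out each library, with 3 without library 3 or library 4. Subtracting the B cell level could not give a value for Plau, which is higher in B cells. Plaur passed 2-fold with Irf4 in that setting (log2 1.08), so the count there rests on another gene. No paired analysis was possible because no result comes from a test. Positive and negative cells of the same library are set side by side by the ratios within each library. Depth limits Plau, Thbd and F7 most, with 194, 374 and 913 UMIs in all macrophages.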
